A study of Mus musculus with 2 samples.

Results

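The intergenic lincRNA probes of the array were the probes whose description placed them in a chromosome interval and strand under the heading lincRNA, which stands for large intergenic noncoding RNA. There were 4460 of them, 4459 after an outlier spot was left out, among 56597 probes for transcripts (7.88%), and they covered 3239 intervals on 20 chromosomes. They were examined in epithelial cells that had been collected from submandibular glands by magnetic sorting for the surface protein EpCAM. The young cells came from a female C57BL/6 mouse aged 9 weeks and the aged cells from a female C57BL/6 mouse aged 24 months, with no other treatment or allele in either group, and each RNA was hybridized to 1 array on the same slide. The methods give the substrain as C57BL/6N, a commercial breeder as the origin of the young mice and the facility of the institute as that of the aged mice. Age, origin and the individual mouse therefore cannot be told apart, and with 1 array per age there was no replicate, no test and no p-value for any difference given here.

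Long noncoding RNAs are transcripts that are not translated into protein. Many are spliced and polyadenylated in the same way as messenger RNA, but their levels are usually lower and more restricted to particular cell types. An intergenic one lies outside the genes of the annotation in use when it was defined, and its strand is part of its identity because a transcript of the opposite strand is a different RNA. Well studied examples are Xist, which coats the inactive X chromosome in female cells, and Neat1, which forms the scaffold of nuclear paraspeckles. For most of the intervals on this array, no function is given by the files. The target of a probe was known only as a stretch of chromosome and a strand.

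Of the 4459 probes, 2231 were directed at the forward strand and 2228 at the reverse strand. Of the 3239 intervals, 832 were probed on both strands, and the intervals ranged from 62 to 538251 bases with a median of 7226. A single probe represented 3755 combinations of interval and strand, while 316 had between 2 and 6 probes. The files place 4368 probes on the mouse genome build mm9, all on the strand of their interval, and give no position for the other 91. The probes are oligonucleotides of 60 bases, and their sequences are given 5′ to 3′ as deposited.

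The probes with the largest differences between the ages are shown first, since each difference rests on the hybridization of these bases alone. Capitals mark AATAAA, the canonical polyadenylation signal. The first line is the probe with the largest increase in the aged cells, the next is the other reverse-strand probe of the same locus, the following 2 lines are further large increases, and the last 3 lines are the largest decreases.
chr10:87541696-87547421_R: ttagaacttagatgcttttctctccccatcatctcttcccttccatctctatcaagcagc
chr10:87542208-87542908_R: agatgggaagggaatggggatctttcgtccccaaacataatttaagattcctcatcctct
chr2:154235540-154248551_R: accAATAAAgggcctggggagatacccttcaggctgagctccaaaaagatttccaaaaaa
chr4:101040523-101080248_F: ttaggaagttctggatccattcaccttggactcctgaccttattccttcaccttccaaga
chr7:118248833-118267766_F: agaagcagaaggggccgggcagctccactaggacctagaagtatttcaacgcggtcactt
chr10:96098058-96098623_F: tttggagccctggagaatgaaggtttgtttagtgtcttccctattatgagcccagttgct
chr10:126831225-126832253_F: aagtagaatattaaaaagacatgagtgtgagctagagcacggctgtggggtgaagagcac

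Probes detected at 1 age only are represented by the pair with the highest limits on the aged array and the one with the highest limit on the young array, in this order, with the same use of capitals.
chr8:128933150-128943375_F: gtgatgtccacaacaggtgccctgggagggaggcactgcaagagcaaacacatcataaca
chr10:8662761-8665101_R: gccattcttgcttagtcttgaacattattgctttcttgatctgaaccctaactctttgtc
chr12:89092175-89105525_F: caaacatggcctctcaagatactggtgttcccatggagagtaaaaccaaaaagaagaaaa

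Reverse-strand probes beside the gene Ifi204 on chromosome 1 are shown because 6 neighbouring lincRNA probes were past 2-fold there. One probe is given for each of their 3 intervals.
chr1:175654606-175672031_R: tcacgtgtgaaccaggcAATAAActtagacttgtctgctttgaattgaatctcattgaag
chr1:175660642-175671878_R: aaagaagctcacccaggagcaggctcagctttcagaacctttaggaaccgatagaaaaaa
chr1:175705225-175717250_R: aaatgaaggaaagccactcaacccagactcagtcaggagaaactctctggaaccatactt

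The brightest lincRNA probes are shown for their base composition. Here, capitals mark the cytosines, which made up 38.3%, 30%, 63.3%, 53.3% and 56.7% of the bases, in the order of the lines.
chr7:16584852-16657252_F: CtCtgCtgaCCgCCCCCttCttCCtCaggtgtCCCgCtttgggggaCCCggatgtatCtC
chr9:65376063-65390480_F: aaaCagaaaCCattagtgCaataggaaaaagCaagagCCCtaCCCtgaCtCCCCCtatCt
chr14:78924115-78938125_F: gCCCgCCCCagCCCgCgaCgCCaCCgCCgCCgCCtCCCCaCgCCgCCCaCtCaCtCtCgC
chr12:73838608-73862621_F: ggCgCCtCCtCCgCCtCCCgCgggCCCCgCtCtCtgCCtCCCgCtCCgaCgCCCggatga
chr6:83368261-83407280_F: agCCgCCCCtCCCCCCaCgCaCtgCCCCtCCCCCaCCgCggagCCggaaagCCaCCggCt

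The probes named in the text follow the spelling of the files, in which F and R after the interval stand for the forward and the reverse strand. AATAAA was found in 178 of the lincRNA probes (3.99%), compared with 11.7% of the probes for RefSeq lncRNA genes and 10.6% of those for RefSeq protein-coding genes. Its reverse complement TTTATT, whose matches cannot overlap those of AATAAA, was found in 123 lincRNA probes (2.76%). The letters were searched on the strand of the probe, and a match is a description of the sequence only.

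The markers of the sorted cells were examined first. All 8 epithelial markers were detected at 1 or both ages, including Epcam and the keratins Krt8 and Krt18, and none of the 7 measured on both arrays differed by 2-fold. Of the 5 acinar markers, Smgc was lower in the aged cells by more than 2-fold, whereas the 4 granular duct markers differed by less. Among the 5 basal and myoepithelial markers, Cnn1 was lower by more than 2-fold. Markers of other cell types were also above background on both arrays, namely 6 of 6 myeloid, 3 of 6 B and plasma cell, 2 of 4 T cell, 3 of 4 fibroblast and 3 of 3 endothelial markers. Of these, 3 myeloid, 2 B and plasma cell and 2 fibroblast markers were at least 2-fold lower in the aged cells, and none was 2-fold higher. Cd79a and Cd8a were not detected on either array. In RNA from a cell population, fewer cells of one type and less RNA per cell cannot be told apart.

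Fewer lincRNA probes than other probes gave a signal, and fewer were detected in aged than in young cells. Detection means that the scanner software marked the spot as well above background. In young cells, 1906 lincRNA probes (42.7%) were detected, where the share among all probes was 53.4%. In aged cells, 1680 lincRNA probes (37.7%) were detected, where the share among all probes was 48.5%. Both arrays detected 1611 probes, only the young array 295, only the aged array 69 and neither array 2484. Young-only probes thus outnumbered aged-only probes by 4.28 to 1, while among all other probes the ratio was 4.99 to 1. Probes for RefSeq lncRNA genes were detected less often than the intergenic probes, in 27.3% (young) and 23.5% (aged), and probes for RefSeq protein-coding genes more often, in 66.0% and 61.3%. The strands did not stand apart, with 43.1% of forward and 42.4% of reverse probes detected in young cells, and 38.1% and 37.3% in aged cells.

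**Figure D1:**
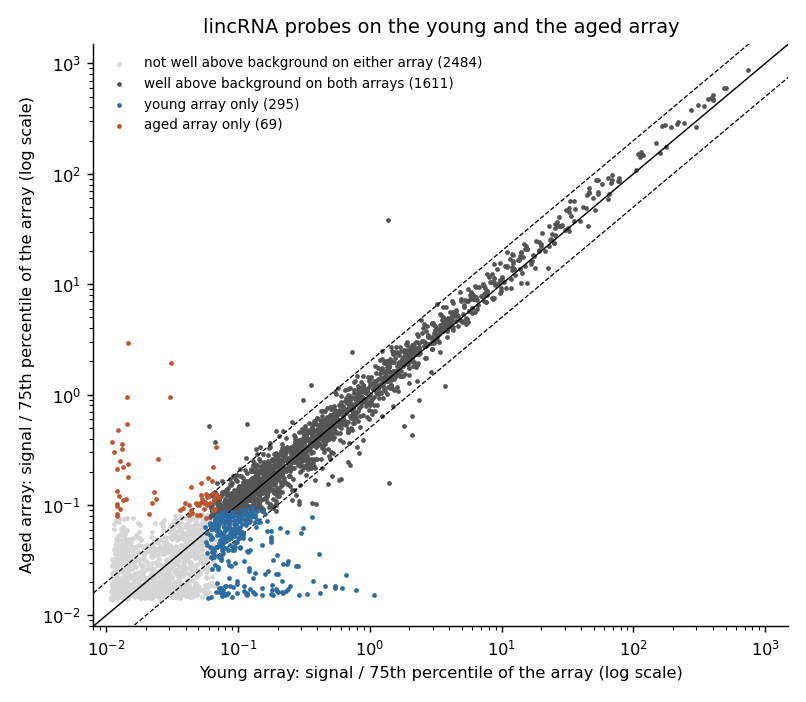
Each point is a lincRNA probe, plotted by its signal on the young array (x axis) and on the aged array (y axis), both divided by the 75th percentile of the array and drawn on log scales. The solid line marks equal values and the dashed lines 2-fold differences. The 1611 probes detected on both arrays lie along the diagonal, and 1 bright probe, chr10:87541696-87547421_R, stands far above it.

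Detection was lower on the aged array on all 20 chromosomes. On the young array it ranged from 31.9% of 185 probes on chromosome 18 to 54.1% of 183 probes on chromosome 11. On the aged array the range was from 27.6% on chromosome 18 to 47.6% on chromosome 17. Chromosomes 11, 14 and 17 had the highest shares on the young array, and chromosomes 18, 13 and X the lowest. For detection on at least 1 array, the order of the chromosomes was almost the same without probes of over 30% cytosine. The Spearman correlation was 0.96 over 20 chromosomes that share both libraries. Detection also climbed with cytosine below 30%, as described next, so this comparison does not set base composition aside. Over the same chromosomes, detection had a Spearman correlation of 0.50 with the median cytosine content of the probes.

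**Figure D2:**
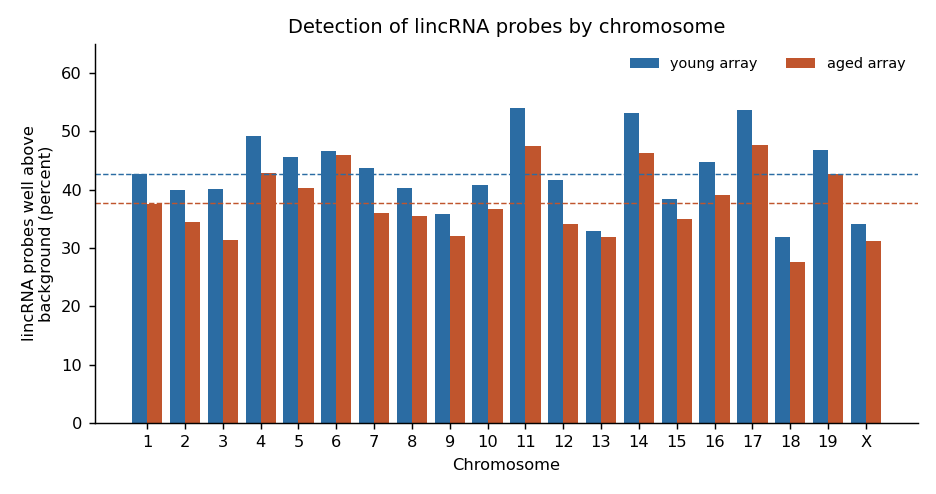
Bars show the percentage of lincRNA probes well above background on each chromosome for the young and the aged array, and dashed lines show the values over all lincRNA probes, 42.7% and 37.7%. The aged bar is lower than the young bar on every chromosome.

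The base composition of the probe moved with its detection. Among lincRNA probes with 10% to 15% cytosine, 29.1% of 553 were detected on at least 1 array. The share was 53.7% among 1012 probes with 25% to 30% cytosine, 74.8% among 345 probes with 30% to 35%, and 98.4% among 63 probes with over 40%. Probes for RefSeq lncRNA genes showed a similar slope, from 19.3% to 63.2% over the first and the third of these ranges, while those for protein-coding genes stayed between 64.4% and 70.2% up to 30% cytosine and then reached 79.1% between 30% and 35% and 98.5% above 40%. The lowest range did not follow the slope, since 36.0% of 161 lincRNA probes with at most 10% cytosine were detected. The median cytosine content was 21.7% in undetected lincRNA probes, 26.7% in those detected on both arrays and 33.3% in the 100 brightest. Of the 100 brightest lincRNA probes, 56 had over 30% cytosine, compared with 5 of the 100 brightest protein-coding probes. Whether the signal of cytosine-rich probes came from the transcript named in the files was not tested.

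**Figure D3:**
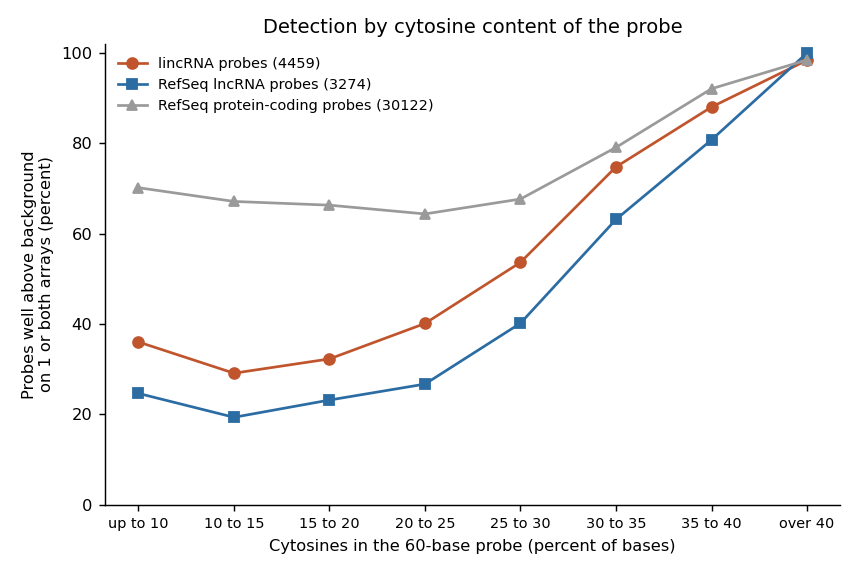
The percentage of probes detected on at least 1 array (y axis) is plotted against the cytosine content of the probe (x axis, percent of 60 bases) for lincRNA, RefSeq lncRNA and RefSeq protein-coding probes. The lincRNA line climbs from 29.1% at 10% to 15% cytosine to 98.4% above 40%, and the lncRNA point above 40% rests on 5 probes.

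The 5 brightest probes were all directed at forward strands and gave similar signals at both ages. chr7:16584852-16657252_F had a signal of 190447 in young and 171411 in aged cells, and chr9:65376063-65390480_F had 128139 and 117808. chr14:78924115-78938125_F gave 123712 and 118454, and chr12:73838608-73862621_F gave 103556 and 103238. The fifth, chr6:83368261-83407280_F, gave 102146 and 94761, although a RefSeq probe for B230319C09Rik on the same strand of this interval was not detected on either array. After scaling to the 75th percentile, the differences of the 5 probes were between 0.22 and 0.37 on the log2 scale, and all 5 were below 0 under quantile normalization and loess, so that no direction can be given. The probes nearest to the 3′ end of their interval were not the ones detected most often. Detection on at least 1 array was 38.9% for 1792 probes within 500 bases of the 3′ end and 48.8% for 1037 probes between 500 and 5000 bases from it. Interval length was not held equal in this comparison, and probes of short intervals lie near the 3′ end. The median interval was 12034 bases for detected and 9194 for undetected probes.

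The comparison of aged with young cells asked which intergenic transcripts differed in the salivary gland epithelium with age. Differences are log2 of the aged over the young signal, each divided by the 75th percentile of its array. Among the 1611 lincRNA probes measured on both arrays, 22 (1.37%) were higher in aged cells by 2-fold or more, and 23 (1.43%) were lower by as much. The shares among all 26745 probes measured on both arrays were 1.41% and 2.80%. The share of higher probes was thus close to that of all probes, and the share of lower probes was smaller. The split between higher and lower probes moved with the scaling, from 46 higher and 20 lower when arrays were centred on their medians to 8 higher and 52 lower when they were set level on the spike-in controls. The median difference of the lincRNA probes was 0.14, compared with 0.08 for the other probes measured on both arrays. The gap of 0.06 between these medians, which a constant for each array cannot move, was 0.11 with quantile normalization, 0.09 with loess and 0.03 when cytosine-rich probes were left out of the lincRNA set. The lincRNA probes had the higher median in each of 5 ranges of mean signal. The software's error for a difference was between 0.20 and 0.38 for the 45 probes past 2-fold and covers error within the array, not between mice.

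The largest increase was found at chr10:87541696-87547421_R. This probe had a signal of 349 ± 35.1 in young and 7502 ± 750.2 in aged cells (software error), a difference of 4.80 and a 27.8-fold increase. Cytosine made up 35% of its bases, and 21.7% of those of the other reverse-strand probe described next. Of the 45 probes past 2-fold, 3 had over 30% cytosine. Whether the signal of such probes came from the named transcript was not tested. The other reverse-strand probe of the locus lies 193 bases away in the overlapping interval chr10:87542208-87542908_R and was not detected on either array, with 3.05 and 3.07. The forward-strand probe of chr10:87541696-87547421 gave 306.0 and 209.4, a difference of -0.18. The high signal in the aged cells therefore stood on 1 of the 3 probes at this locus. No probe of a named gene nearby shared it. Both probes for Parpbp, whose product binds PARP1, were undetected on both arrays, and Igf1, which encodes insulin-like growth factor 1 and lies farther off on the forward strand, gave 142.1 and 25.3, a difference of -2.12.

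The next largest increases came from probes that were dim in young cells. chr2:154235540-154248551_R gave 15.4 ± 3.43 and 103.4 ± 10.8, a difference of 3.12, while the forward-strand probe of this interval was lower by 0.79 on the log2 scale. chr18:73870981-73877247_F gave 17.1 and 73.3 (2.47), and chr4:101040523-101080248_F gave 29.8 and 106.2 (2.21). None of these 3 intervals held a probe of a named gene. The lowest young signal marked as well above background was 14.1, so the first 2 of these probes were only just above it at 9 weeks. With the normexp background correction, the 3 differences were smaller, namely 1.37, 1.04 and 1.11.

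Brighter increases came from intervals beside known genes whose own probes did not move with them. Distances to gene probes are given from the edge of the interval, and the lincRNA probe can lie farther off. The interval of chr4:94719930-94825776_F lies 2943 bases from the probe of Jun. Jun encodes a subunit of the transcription factor AP-1 and is transcribed from the opposite strand. The lincRNA probe gave 92.2 ± 9.81 and 243.1 ± 24.5, a difference of 1.77, while the difference of Jun was -0.00. chr5:33174092-33200792_F, whose interval lies 2105 bases from the probe of Prr14l on the opposite strand, gave 187.7 and 483.2 ± 48.4 (1.74). The reverse-strand probe of this interval differed by 0.54. chr4:82979473-83035023_F gave 79.6 and 177.9 (1.53), and the opposite-strand lncRNA Gm11413 in this interval was undetected. With normexp, the last difference was 1.03.

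The last of the 10 largest increases were smaller. chr6:125330524-125410249_F, whose interval lies 382 bases from the probe of the tetraspanin Cd9, gave 49.9 and 92.3 (1.26), with a difference of 0.00 for Cd9. Its sequence shares 39 identical aligned bases with the probe for Tomm7, a subunit of the mitochondrial import complex, which differed by 0.49. chr13:16050871-16065396_R gave 34.97 and 63.4 (1.23), and chr11:95483973-95490751_F gave 29.2 and 52.5 (1.22). With normexp, these 3 probes were under 2-fold (0.77, 0.67 and 0.58), and the last 2 were also under it when the arrays were set level on the spike-in controls (0.97 and 0.96). The other 12 increases lay between 1.00 and 1.19.

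The largest decrease was found at chr7:118248833-118267766_F, with 359.9 ± 36.1 in young and 31.5 ± 4.54 in aged cells. The difference was -3.14, or 8.83-fold. This probe lies opposite the lncRNA gene 1700012D14Rik, whose own probe gave 43.2 and 28.7, a difference of -0.22. chr10:96098058-96098623_F, an interval of 566 bases that lies 12641 bases from the probe of Btg1 on the same strand, gave 531.9 ± 53.3 and 85.5 ± 9.30 (-2.26). Btg1, an anti-proliferative factor, gave 464.8 and 203.5 (-0.82), which was also lower but by less than 2-fold. With normexp, the differences at chr7:118248833-118267766_F and chr10:96098058-96098623_F were -1.88 and -1.68. chr10:126831225-126832253_F gave 100.4 and 20.4 (-1.93), and the nearest gene, Inhbc, was undetected. With normexp this probe was under 2-fold (-0.69).

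Of the other decreases among the 10 largest, 4 came from the region of Ifi204 described below. The remaining 3 were chr18:3003075-3016150_R with 153.8 and 34.2 (-1.80), chr1:36095331-36095706_F with 149.5 and 33.3 (-1.79), and chr2:181650800-181669350_R with 123.5 and 30.4 (-1.65). All 3 were under 2-fold with normexp (-0.86, -0.77 and -0.66). The forward-strand probe of the last interval differed by -0.29. The other 13 decreases lay between -1.62 and -1.15. They included chr7:66874527-67012170_R, in the interval of Ipw, a noncoding RNA of the imprinted Prader-Willi region, with 73.8 and 20.1, a 2.84-fold difference. It is named here after its values were seen. The RefSeq probe for Ipw in this interval was undetected on both arrays, and the lincRNA probe shares 38 identical aligned bases with a probe for Snhg14, a host RNA of the same region, which was undetected as well.

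The lincRNA probes past 2-fold were compared with their nearest genes. Among all 26745 probes measured on both arrays, 1.41% were higher and 2.80% lower by 2-fold or more. For 31 of the 45 probes, the probe of the nearest gene was measured on both arrays. It was past 2-fold in the same direction for 6 of them, and Ifi204 was the nearest gene of all 6. It was past 2-fold in the opposite direction for 1 and under 2-fold for the other 24. The 1 was a reverse-strand probe of chr8:35652473-35703370 (1.03), with the phosphatase gene Dusp4 (-1.07) at 178675 bases from its interval. For 3 further probes, the nearest gene was detected in young cells only, and 1 of these genes, Speer4c (43.4 and 13.5), had a limit past 2-fold in the same direction as its lincRNA probe. For the remaining 11 probes it was undetected. No gene probe lay in the interval of 19 of the 22 higher and 18 of the 23 lower probes. The same was true of 1375 of all 1611 lincRNA probes measured on both arrays, so it does not set the probes past 2-fold apart. Across all measured probes, the correlation of the difference with that of the nearest same-strand gene probe was 0.07 over 79 pairs in which the gene probe lay in the interval, 0.40 over 213 pairs 1 to 10000 bases apart (Spearman's 0.22), 0.16 over 535 pairs between 10000 and 100000 bases, and 0.04 over 206 pairs farther apart. These pairs share both libraries and, in part, the same gene.

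Several lincRNA probes were past 2-fold together on chromosome 1 between 175655046 and 175710968 of mm9. Here, 7 reverse-strand lincRNA probes of 3 intervals spanned 55923 bases around Ifi204, a gene of the interferon-inducible Ifi200 family that is known for sensing of foreign DNA. All 7 had lower signals in aged cells, with differences from -1.81 to -0.70 and a median of -1.65, and 6 of them were past 2-fold. These 6 were among the 23 lower lincRNA probes. Among probes measured on both arrays, no other run of lincRNA probes on 1 strand, with gaps of at most 100000 bases, had more than 1 member past 2-fold. With limits counted as well, 3 other runs had 2 such members each, both lower in a run on chromosome 5 and of opposite directions in those on chromosomes 4 and 11.

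In the interval chr1:175654606-175672031_R, the 3 probes gave 537.8 and 125.8 (-1.72), 463.3 and 103.5 (-1.79), and 181.7 and 45.6 (-1.62). In chr1:175660642-175671878_R, which overlaps it, the probes gave 176.1 and 48.8 (-1.48) and 47.1 and 22.3 (-0.70). In chr1:175705225-175717250_R, they gave 953.0 and 234.5 (-1.65) and 93.1 and 20.5 (-1.81). Probes of different brightness thus gave similar differences, and the one with the smallest difference had the lowest young signal of the 7. Of the forward-strand probes of the region, chr1:175654606-175672031_F was detected in young cells only (33.5 and 3.24), with a limit of -0.86 on the log2 scale. The other, chr1:175705225-175717250_F, was detected in aged cells only (3.43 and 21.8). Its limit was 1.01, or at least 2.01-fold higher in aged cells, opposite to the reverse-strand probes.

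The neighbouring genes of the same strand had differences of the same size. The 2 probes for Ifi204 gave -1.66 and -1.70, the one for Mndal -1.57 and the detected one for Ifi205 -1.52. On the forward strand, Ifi208 (-0.04, 1 of 3 probes detected) and Ifi209 (-0.41) were under 2-fold, and both probes for Ifi202b on the reverse strand were undetected. The probe of chr1:175705225-175717250_R with the difference of -1.81 shares 37 identical aligned bases with the probe ENSMUST00000195502, which lies farther along the same region and was detected in young cells only, and whether transcripts of related genes bound to these probes was not tested. With the normexp background correction this difference was -0.66. The Ifi200 genes are known for their expression in myeloid cells, and all 6 myeloid markers were measured on both arrays. Lyz2 (-1.91), Adgre1 (-1.36) and Cd68 (-1.06) were past 2-fold, Csf1r was at -0.62, Ptprc at -0.21 and Itgam at -0.05. Before scaling, the summed signal of these markers was 47948 in young and 20132 in aged cells. Lyz2 alone gave 23810 of the young and 4884 of the aged sum. The sums were not scaled as the differences were, so no fold is read from them. The part of the myeloid markers in the result was not tested.

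**Figure D4:**
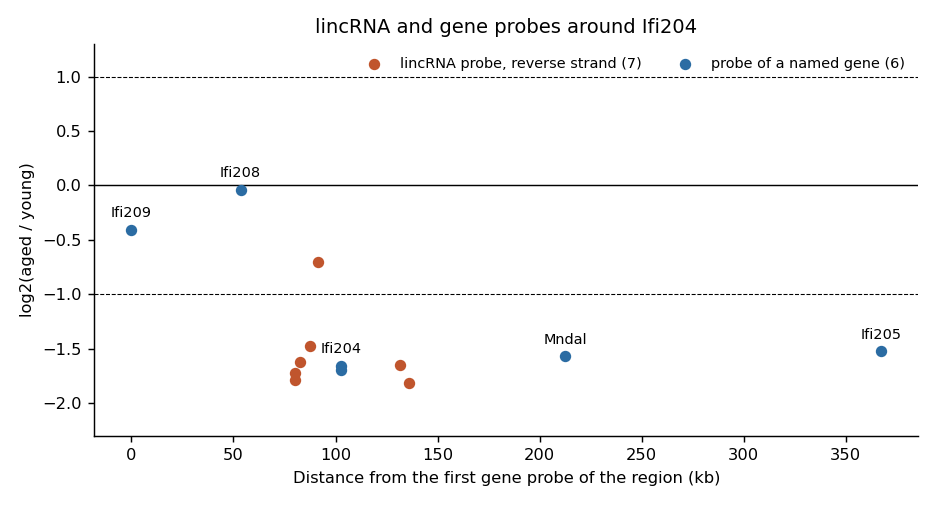
Differences between aged and young cells (y axis, log2) are plotted by the distance from the first gene probe of the region (x axis, kb) for probes measured on both arrays. The 7 lincRNA probes and the probes of Ifi204, Mndal and Ifi205 lie between -1.81 and -0.70, whereas Ifi209 and Ifi208 lie at -0.41 and -0.04, and dashed lines mark 2-fold.

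Probes detected on 1 array only allow a lower limit of the fold. It was taken against the lowest signal marked as well above background on the other array. Where the probe's own signal on that array was higher, that signal was used. Of the 69 aged-only lincRNA probes, 32 (46.4%) had a limit of at least 2-fold, where the share among all aged-only probes was 48.6%. Of the 295 young-only probes, 51 (17.3%) had such a limit, where the share among all young-only probes was 21.1%. The other probes detected at 1 age only had no limit of 2-fold.

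The highest limit in aged cells was that of chr8:128933150-128943375_F, which gave 3.73 in young and 575.4 ± 57.7 in aged cells and was at least 52.9-fold higher. The nearest gene, Coa6, a mitochondrial assembly factor 5736 bases from the interval on the same strand, differed by 0.29. chr10:8662761-8665101_R gave 7.94 and 379.6 and was at least 34.9-fold higher, and chrX:132429992-132486347_F gave 3.66 and 189.2 and was at least 17.4-fold higher. Bhlhb9, 4822 bases from the latter interval on the same strand, was lower by 0.94 on the log2 scale. chr1:71730016-71740391_R gave 7.79 and 187.0 (at least 17.2-fold higher) and chr15:32708654-32725622_F gave 3.66 and 108.3 (at least 9.96-fold higher). Each of these 5 intervals was without a gene probe of its own. The limits depended on the background correction: on the log2 scale they lay between 3.32 and 5.73, and with normexp between 1.44 and 3.27.

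In young cells, the highest limit was that of chr12:89092175-89105525_F, with 274.2 ± 27.6 in young and 3.03 in aged cells, at least 14.8-fold lower in aged cells. The interval holds Gm7104, a transcribed pseudogene on the same strand. Its probe was marked as detected in young cells only, but gave 20.5 and 16.2, a difference of 0.04 after scaling. chr3:22184002-22196752_R gave 202.4 and 3.34 (at least 10.96-fold lower), and chr3:105743656-105744336_R gave 169.9 and 4.56 (at least 9.20-fold lower). The latter interval lies 1535 bases from the probe of Atp5pb, a subunit of ATP synthase, which differed by 0.36. chr12:43218810-43252827_F gave 158.9 and 3.50 (at least 8.60-fold lower), and chr4:135584179-135584625_F gave 139.8 and 3.47 (at least 7.57-fold lower). On the log2 scale the 5 limits lay between -3.89 and -2.92, and with normexp between -2.03 and -1.20.

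The 832 intervals probed on both strands were sorted by the strand or strands detected. With a strand counted as detected if either array detected it, 196 intervals had the forward strand only, 196 the reverse strand only, 244 both strands and 196 no strand. A single strand was thus found in 392 intervals (47.1%). Of all lincRNA probes, 44.3% were detected on at least 1 array, and probes detected independently would also often leave 1 strand of 2 detected. The share of intervals with a single strand therefore does not show that the array assigned a strand, and it was not tested against such a rate. On the young array, 393 intervals had 1 detected strand and 230 had both, and on the aged array 388 had 1 and 193 had both. Intervals with no detected strand numbered 209 in young and 251 in aged cells. In 702 intervals the arrays gave the same result for both strands, including 506 with a detected strand and the 196 with none, and of 327 intervals with 1 strand on each array, 2 switched from one strand to the other. In the 322 intervals with 1 probe per strand of which 1 was detected, the detected probe had the higher cytosine content in 212 and the lower in 87, with medians of 26.7% and 20.8%.

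Where both strands were measured on both arrays, their differences between the ages were not closely related. In these 181 intervals, both strands were above 0 in 89, both were below 0 in 17 and they had opposite signs in 75. No interval had both strands past 2-fold in either the same or opposite directions, and 9 had 1 strand past 2-fold. The median absolute gap between the strands was 0.32. Over the 181 intervals, which share both libraries, Pearson's correlation of the strands was 0.00 and Spearman's was 0.12. Several probes of 1 strand were closer to each other, with a median span of 0.26 over 77 combinations of interval and strand that had at least 2 measured probes. Among 5 such combinations with a probe past 2-fold, all measured probes were past 2-fold in 2, both in the Ifi204 region. Of 316 combinations with more than 1 probe, all probes were detected in 88, none in 103 and some in 125.

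**Figure D5:**
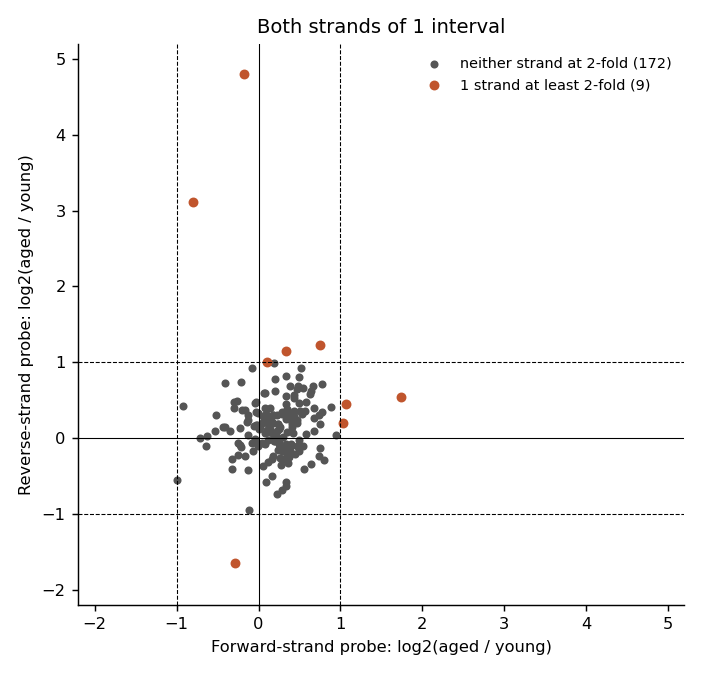
Each of the 181 points is an interval with both strands measured on both arrays, plotted by the difference between aged and young cells of its forward-strand probe (x axis, log2) and its reverse-strand probe (y axis, log2). Dashed lines mark 2-fold, and none of the 9 intervals with a strand past 2-fold has both strands beyond the lines.

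Among the lincRNA probes, 10 carry the name of a known RNA. The Xist probe gave 1525 ± 152.5 and 1446 ± 144.6, a difference of 0.30, and the Neat1 probe gave 17340 ± 1734 and 16377 ± 1638, a difference of 0.29. The software's error of both differences was 0.20. Tug1, a lncRNA expressed in many tissues, gave 267.8 and 130.9 (-0.66), and Nron, which is known to restrain the transcription factor NFAT, gave 41.1 and 28.3 (-0.17). The probes for Tsix, Pinc, lincP21, H19 and Hotair were not detected on either array.

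RefSeq probes for the same RNAs were compared where they existed. Their differences were -0.07 for Xist, -0.00 for Neat1 and -0.25 for Tug1, all under 2-fold like those of the lincRNA probes. H19, an imprinted RNA that is abundant in the embryo, was detected in young cells by its RefSeq probe only (46.4 in young cells, at least 2.51-fold lower in aged cells), and Nron was undetected by its RefSeq probe. The probe named KCNQ1ot1 gave 203.6 ± 20.7 and 294.0 ± 29.6 (0.90), while the brightest RefSeq probe for Kcnq1ot1, the imprinted transcript that silences genes of the Kcnq1 domain, gave 2764 and 1234 (-0.79). According to the files, the former lies on the forward and the latter on the reverse strand, so these probes do not measure the same RNA.

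Named long noncoding RNAs outside the intergenic set were examined by a list of names. Of 35 RNAs, 31 had a probe, 27 were detected and 25 were measured on both arrays. Their median difference was 0.08, beside 0.09 for all RefSeq lncRNA probes measured on both arrays. Mirg, a microRNA host of the imprinted Dlk1-Dio3 domain, was the only one at least 2-fold higher (20.4 and 55.9, 1.82), and Dleu2, the host of miR-15a and miR-16-1, the only one at least 2-fold lower (71.3 and 27.4, -1.01). The small nucleolar RNA host genes Gas5 (0.55), Snhg12 (0.49), Snhg11 (0.46), Snhg3 (0.40) and Snhg8 (0.32) were under 2-fold. So were Snhg6 (0.18), Snhg18 (0.14), Snhg5 (0.14) and Snhg1 (0.08), which lay closer to the median of the list. Rmst was detected in young cells only and was at least 3.30-fold lower in aged cells.

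Some of the intervals held probes for genes that are in RefSeq. Probes of RefSeq genes lay in the interval on the same strand for 315 lincRNA probes, on the opposite strand only for 288 and on neither for 3856. Detection on the young array was 48.6%, 42.4% and 42.3% in these sets, and 61.7% for the 107 probes with a protein-coding gene on the same strand. Where the gene probe lay on the opposite strand, 2 probes were higher and 3 lower by 2-fold among 110 measured on both arrays. By sequence, 50 lincRNA probes shared at least 30 identical aligned bases with another probe of the array in the same orientation, and 3 of these were among the 45 past 2-fold. An example, chosen after its values were seen, is a lincRNA probe that shares 48 bases with the probe of the ribosomal protein gene Rps29 and differed by 0.69, where Rps29 differed by 0.64. Of the 5 lincRNA probes printed in 9 or 10 spots, the standard deviation of the difference between spots ranged from 0.03 to 0.05, which is a technical error within the arrays.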

How the data were processed

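Scanner intensities of the 2 arrays were used, which the authors deposited as made with Feature Extraction 12.0.3.1. Per the file headers, the intensity of a spot had its background subtracted and trends across the array removed, with no scaling between arrays. The deposited processed table holds the ratio of these intensities to 1 constant per array, after the normalization to the 75th percentile named in the methods, and served as an alternative. Marks for detection and outliers (deposited, other) were used as given, and a probe in several spots was detected where most of its spots were. Log2 of the signal minus log2 of the 75th percentile over 59305 non-control spots (256.2 young, 197.9 aged) was compared between the arrays, and 132 outlier spots were left out after this scaling. A 2-fold threshold followed the methods. Limits were taken against the lowest signal well above background (14.1 young, 14.3 aged), or against the probe's own signal on that array where it was higher. Intervals and positions are those of the files (mm9). Gene names came from RefSeq accessions, of which 33762 probes matched a GRCm38.p6 table used for names only. Probes were aligned with BLAST 2.17.0 and alternatives computed with limma 3.58.1 in R 4.3.3, Python 3.11.15, numpy 2.4.6 and pandas 2.3.3. The steps were tested on simulated data. The named probes were the 10 largest increases, 10 largest decreases and 5 brightest probes measured on both arrays, the 5 highest limits of each age, the intervals with both strands past 2-fold (none was found), the nearest gene of each and a list of named long noncoding RNAs. Other named probes and genes, including the lincRNA probes with the name of a known RNA, were chosen after their values were seen. Lists and members were chosen with earlier results of these data known. The number of arrays limits the precision of every value.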

Additional observations from a re-analysis of the deposited data

How the results depend on the processing

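Of the 30 named probes past 2-fold or with a limit past it, 22 stayed past it under 8 settings, namely the 75th percentile and the 7 alternatives for scaling, background correction or the authors' table, and the direction of none changed. The other 8, 3 increases and 5 decreases named in the report, fell under 2-fold with the normexp correction and 2 of them also with the spike-in level. The number of probes at least 2-fold higher was 22 and of those lower 23. With median centring, 46 were higher. With the 75th percentile taken over the probes detected at both ages, 13 were higher and 34 lower. With normexp, 7 were higher and 6 lower. With the spike-in level, chosen after seeing the data, 8 were higher and 52 lower. Marking probes with a positive and significant signal gave 123 and 129, a signal of at least 3 times its error 37 and 37, and no filter on dim probes 248 and 258. The median difference of 0.14 was 0.32 with median centring, 0.031 with the 75th percentile of the probes detected at both ages, 0.056 with loess, 0.10 with the positive and significant mark, 0.32 without a filter and -0.11 with the spike-in level. With the positive and significant mark, 3051 probes were detected in young and 2829 in aged cells, and 249 intervals had 1 detected strand. Leaving out probes of over 30% cytosine, chosen after seeing the data, gave 19 higher and 23 lower, and leaving out intervals with a same-strand gene, also chosen then, 21 and 21. The authors' table, kept outlier spots and 1 probe per interval and strand moved no count by 1.5 times. No paired analysis was possible because each age had 1 array.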
